A study of Mus musculus with 7 samples.

Results

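The genes described here are 31 mouse genes known to be induced by type I interferon, chosen by symbol from a list made for this work. Of these, 30 matched a row among the 31053 genes of the count matrices, and Mx2 was not analysed here. Marrow cells were tagged with hashtag antibodies, combined in 4 pools and sequenced as 7 droplet libraries, from which 20 hashtag samples were read. The samples were grouped by the prefix of their names, giving WTY (WTY.3 to WTY.5, 3 samples), WTO (WTO.3 to WTO.6, 4 samples), HRY (HRY.4 to HRY.6, 3 samples) and HRO (HRO.7 to HRO.12, 6 samples). The samples HRO.5 and HRO.6 were kept apart as the chronic group, since the series text calls them TET2-mutated and chronic. The labels name mouse total marrow as the tissue but give no strain, genotype, treatment, age or time for the other groups, and the prefixes are not interpreted. HR.7 and HR.AE each stood alone and entered no group.

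Type I interferons are secreted by cells that sense viral or self nucleic acid, and they signal through the IFNAR receptor and the kinases JAK1 and TYK2. A complex that holds STAT2 and IRF9 then binds a DNA element called the interferon-stimulated response element in the promoters of a large set of genes, among them those listed here. In marrow these genes are known to be switched on in myeloid cells during infection and inflammation, and interferon gamma also induces part of them.

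The promoter sequences of the genes are shown first because the listed genes are known targets of a complex that binds DNA, and some of the windows hold the core of its element. RefSeq promoter windows of the GRCm38.p6 assembly, which run from 250 bases before to 50 bases after a start site, were found for 22 of the 31 genes. They were searched on both strands for the core of the response element, a GAAA, any 2 bases and a second GAAA (matches may overlap). A match was present in 12 of these 22 genes (54.55%), against 1079 of 27025 genes (3.993%) in the whole table. The 12 genes were Bst2, Ddx58, Ifih1, Ifit1, Ifit3, Ifit3b, Isg15, Oas1a, Oas3, Rsad2, Stat2 and Trim30a, and in 10 of them a match lay before the start site. Stretches of 5 genes to which the results return are given, with the first match in capitals and each written 5′ to 3′ on the strand of its gene. They lie at chr4:156200867-156200916 on the minus strand (Isg15), chr19:34640765-34640814 on the plus strand (Ifit1), chr5:120777705-120777754 on the minus strand (Oas3), chr5:120907526-120907565 on the minus strand (Oas1a) and chr8:71537573-71537622 on the minus strand (Bst2). In Ifit1 the capitals read TTTCACTTTC, which is the element seen from the other strand.
Isg15: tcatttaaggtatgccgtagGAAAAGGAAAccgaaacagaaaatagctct
Ifit1: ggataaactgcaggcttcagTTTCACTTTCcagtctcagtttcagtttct
Oas3: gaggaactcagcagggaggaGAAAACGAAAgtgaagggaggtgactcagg
Oas1a: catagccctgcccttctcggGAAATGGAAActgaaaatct
Bst2: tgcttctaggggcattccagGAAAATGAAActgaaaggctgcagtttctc

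The Isg15 stretch holds 3 overlapping matches, at 78, 72 and 66 bases before the start site. The Bst2 stretch holds 2, at 130 and 124 bases, and the Oas3 window a single one at 75 bases. No match was found in the windows of Cmpk2, Ifi35, Ifi44, Ifit2, Irf7, Irf9, Isg20, Oasl1, Oasl2 and Xaf1, which says only that these letters are not in those 300 bases. A match describes the sequence and is not evidence of binding.

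After filtering, 43062 cells of 78720 barcodes were kept, with 2679390 (WTY.4) to 56015664 (HRO.7) UMIs per sample. Clusters formed without the listed genes were named by marker genes, and all class names stand for cells that resemble the class. The levels are UMI counts scaled to the total of the summed cells (CPM) for each sample and class with at least 20 cells, and a fold change compares such sums. A difference can therefore arise from more RNA per cell or from more responding cells within the class, which these sums cannot tell apart. The labels do not say that hashtags mark separate animals, and the p-values reflect only how far hashtag samples spread, which may be technical. HRO.7 and HRO.8 were the most alike of 171 pairs of samples in immature neutrophils, with a chi-square per gene of 1.75 over 9903 genes, and differed by more than sampling noise. They were kept as 2 samples. HRO and WTO samples met in WBM_2 (HRO.7, HRO.8, HRO.9 and WTO.4) and WBM_4 (HRO.11, HRO.12, WTO.5 and WTO.6). HRO and HRY met only in WBM_3, where HRO.10 was the single HRO sample. Ddx3y, a Y-linked gene, was over 5 CPM in HRO.9 alone of the HRO samples. It was over this mark in all HRY samples, in WTO.3, WTO.5 and WTO.6 and in WTY.4 and WTY.5. In WBM_3 and WBM_4 this held for every HRY, WTO and WTY sample and no HRO sample. Group and Ddx3y status cannot be told apart there.

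Macrophages were measured in HRO.7 and HRO.8 alone and are given after the other 11 classes, which are ordered without them. Among these 11, the listed genes were highest in mature neutrophils and monocytes and lowest in myeloid progenitors and plasma cells. The mean of log2(CPM + 1) over the 30 genes had a median over samples of 4.85 in mature neutrophils (18 samples), 4.72 in monocytes (19) and 4.39 in conventional dendritic cells (4). The medians were 3.78 in T or NK cells (18), 3.67 in plasmacytoid dendritic cells (10) and 3.33 in B lineage cells (16). Stem and multipotent progenitors (10 samples, 3.28), immature neutrophils (19, 3.26) and erythroid cells (10, 3.22) lay close together, above myeloid progenitors (19, 2.78) and plasma cells (4, 2.51). Macrophages gave 6.47 and 6.51, above every other class in these samples. In 18 of 18 samples mature neutrophils lay above immature neutrophils, with a median difference of 1.56 on this scale. Neighbours in the order overlapped in their ranges, and the counts are from 3′ ends, so no length scaling applied.

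Of the 11 classes, plasmacytoid dendritic cells, which are known for making type I interferon, had the highest medians of the regulators. Stat2 and Irf9, which act together in the signalling complex, had medians of 111 and 102 CPM there, and Irf7, which drives interferon transcription itself, 70.5 CPM (40.8 to 125 over 10 samples). Bst2, or tetherin, which holds budding virus at the cell surface and marks this cell type in the mouse, had a median of 2921 CPM (1739 to 3786), against 334 CPM in conventional dendritic cells, the next of the 11. Trim30a, a TRIM family member that restrains Toll-like receptor signalling, was highest there too, at 265 CPM.

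Most genes of the IFIT and OAS families were highest in mature neutrophils among the 11 classes. The median there was 28.7 CPM for Ifit1, 23.1 for Ifit3 and 16.3 for its close copy Ifit3b, whose products bind foreign RNA caps. Reads of Ifit3 and Ifit3b may be shared between the near-identical copies. Ifit2 was highest in conventional dendritic cells (37.9 CPM) and could not be fitted in mature neutrophils. Of the oligoadenylate synthetases, which make the messenger that activates RNase L, Oas3 (140 CPM) and Oas2 (32.6) were highest in mature neutrophils and Oas1a in monocytes (26.3). The related Oasl2 (190 CPM) and Oasl1 (17.6), whose products act in RNA sensing and in limiting IRF7 translation, also peaked in mature neutrophils. So did Isg15 (74.7 CPM), a ubiquitin-like modifier, Rsad2 (95.1), which encodes viperin, its genomic neighbour Cmpk2 (57.4), a nucleotide kinase, and Rtp4 (125), a chaperone of membrane receptors.

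The remaining genes peaked in others of the 11 classes. Ifi27l2a, a small membrane protein gene, was highest in monocytes at a median of 1008 CPM, with a range of 112 to 3732 CPM over 19 samples. Dhx58, which encodes the regulatory sensor LGP2, was also highest in monocytes (20.3 CPM). Ddx58, encoding RIG-I, and Xaf1, a proapoptotic gene, were highest in T or NK cells (56.1 and 44.7 CPM), and Ifih1, encoding MDA5, in stem and multipotent progenitors (24.2). Conventional dendritic cells were highest for Zbp1, a sensor of Z-form nucleic acid that can start necroptosis (73.0 CPM), Usp18, the protease that removes ISG15 and damps the receptor (19.6), and Mx1, a GTPase against influenza virus (26.5). They also led for Ifi44 (51.2), Ifi35 (77.9) and Parp14 (94.4), an ADP-ribosyltransferase. For Zbp1 plasma cells were nearly level (72.9 CPM). Conventional dendritic cells were measured in HRO.7, HRO.8, HRO.9 and HR.7 alone. Their lead, for Ifit2 too, cannot be told apart from these samples. Isg20, an RNA exonuclease, was highest in erythroid cells, at 129 CPM. It was 6.11 CPM in HR.7 and 84.6 to 260 CPM in the other samples of that class.

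The macrophages of HRO.7 and HRO.8 had a higher median than all 11 classes for 19 of the 30 genes. Isg15 was 462 and 585 CPM there, Irf7 252 and 274 CPM, Ifit2 196 and 187 CPM, and Zbp1 226 and 240 CPM. Parp14 (308 and 333 CPM), Ifi44 (197 and 229 CPM), Ifih1 (96.3 and 129 CPM), Oas1a (77.6 and 92.7 CPM) and Ifit1 (88.0 and 100.3 CPM) were among these genes too. Bst2 was 339 and 384 CPM, the next level below plasmacytoid dendritic cells. The other 11 genes, among them Oas3, Oasl2, Rsad2, Cmpk2 and Isg20, were higher in another class. Both samples were also high in immature neutrophils, and no macrophages of other groups were measured, so the cell type and the samples cannot be told apart.

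The mean level per sample showed which libraries were high. In immature neutrophils it was 5.54, 5.49, 3.90, 5.84, 3.34 and 2.59 in HRO.7 to HRO.12, a mean of 4.45 ± 1.36 (SD, n = 6). It was 2.79, 4.08, 2.60 and 2.15 in WTO.3 to WTO.6 (2.91 ± 0.83, n = 4), 2.39, 2.69 and 3.40 in HRY (2.83 ± 0.52, n = 3) and 2.76, 3.26 and 3.51 in WTY (3.18 ± 0.38, n = 3). The chronic samples gave 2.52 and 2.73. Thus HRO.7, HRO.8 and HRO.10 stood above all samples of the other groups, while HRO.9, HRO.11 and HRO.12 lay within the range of WTO.

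**Figure D1:**
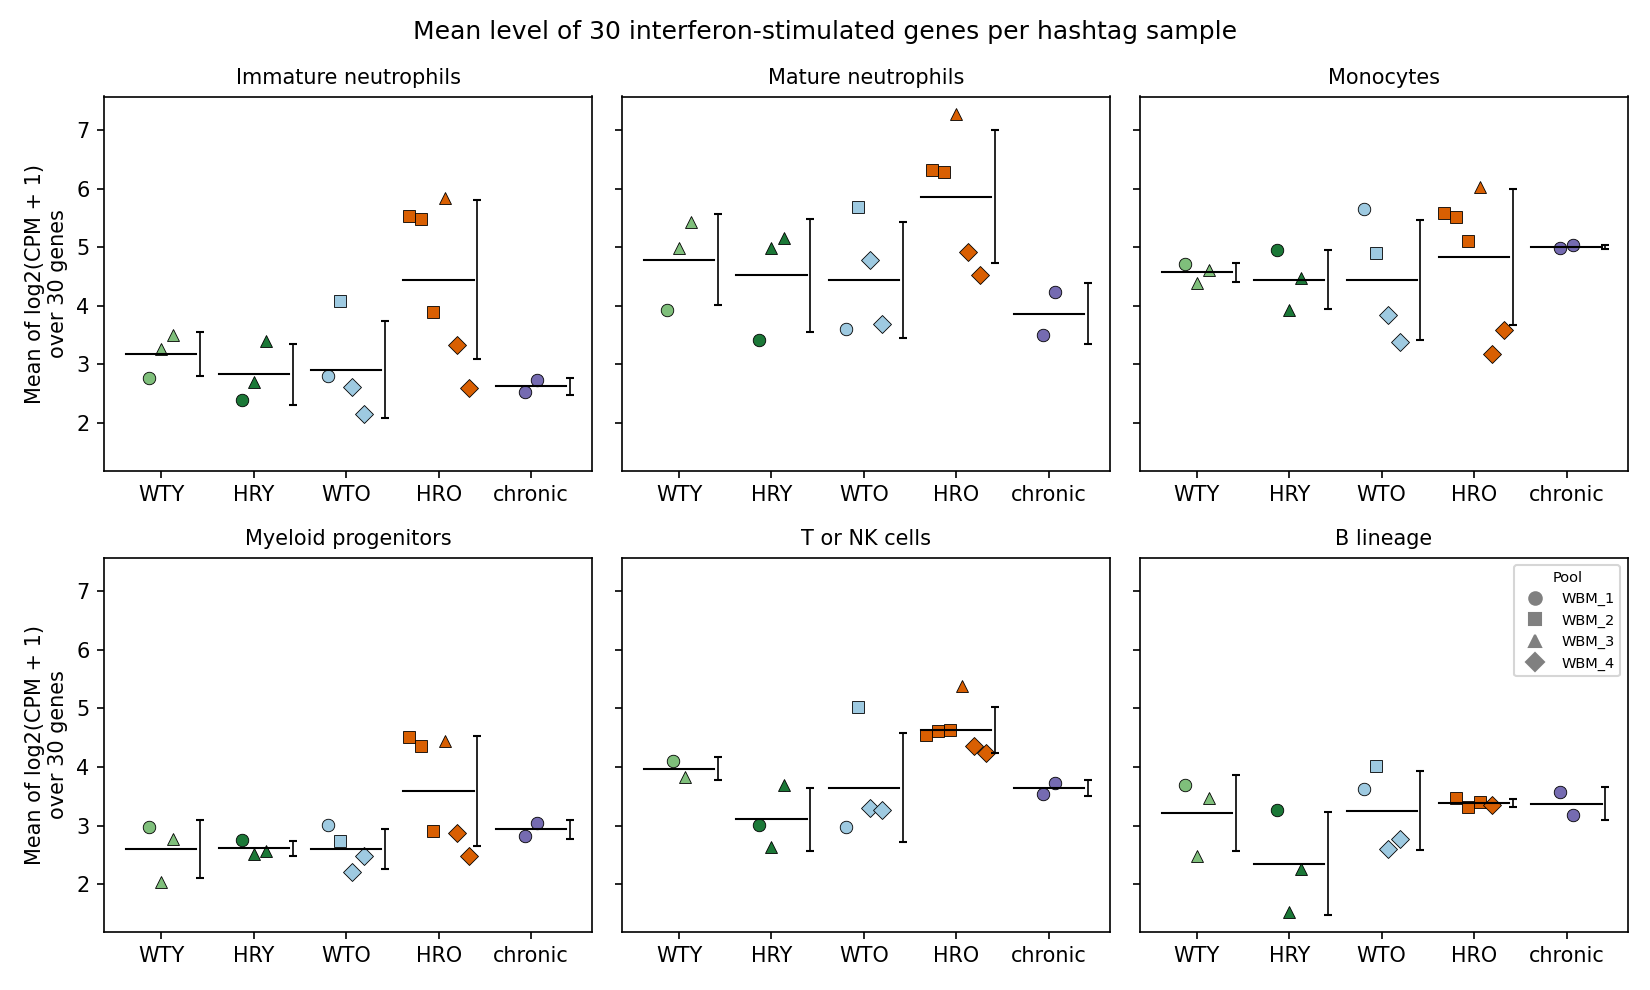
Mean of log2(CPM + 1) over the 30 genes (y axis) per hashtag sample by group (x axis), in 6 marrow classes. Each point is 1 sample with its shape marking the pool; in immature neutrophils HRO.7, HRO.8 and HRO.10 lie at 5.49 to 5.84, and the other groups reach at most 4.08.

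In mature neutrophils HRO.10 was highest at 7.28, with HRO.7 at 6.31 and HRO.9 at 6.29, whereas HRO.11 (4.91) and HRO.12 (4.52) lay among the WTO samples (3.60 to 5.69). HRO.8 had too few of these cells to enter, and the HRO.7 value rests on 23 cells. In monocytes the HRO range was wide, from 3.18 (HRO.11) to 6.02 (HRO.10) with a median of 5.31, and overlapped WTO (3.38 to 5.65), HRY (3.93 to 4.95) and WTY (4.39 to 4.72) at both ends. In myeloid progenitors HRO.7, HRO.8 and HRO.10 again stood apart at 4.51, 4.35 and 4.45, with the other HRO samples at 2.47 to 2.90 and all other groups at 2.03 to 3.04.

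**Figure D2:**
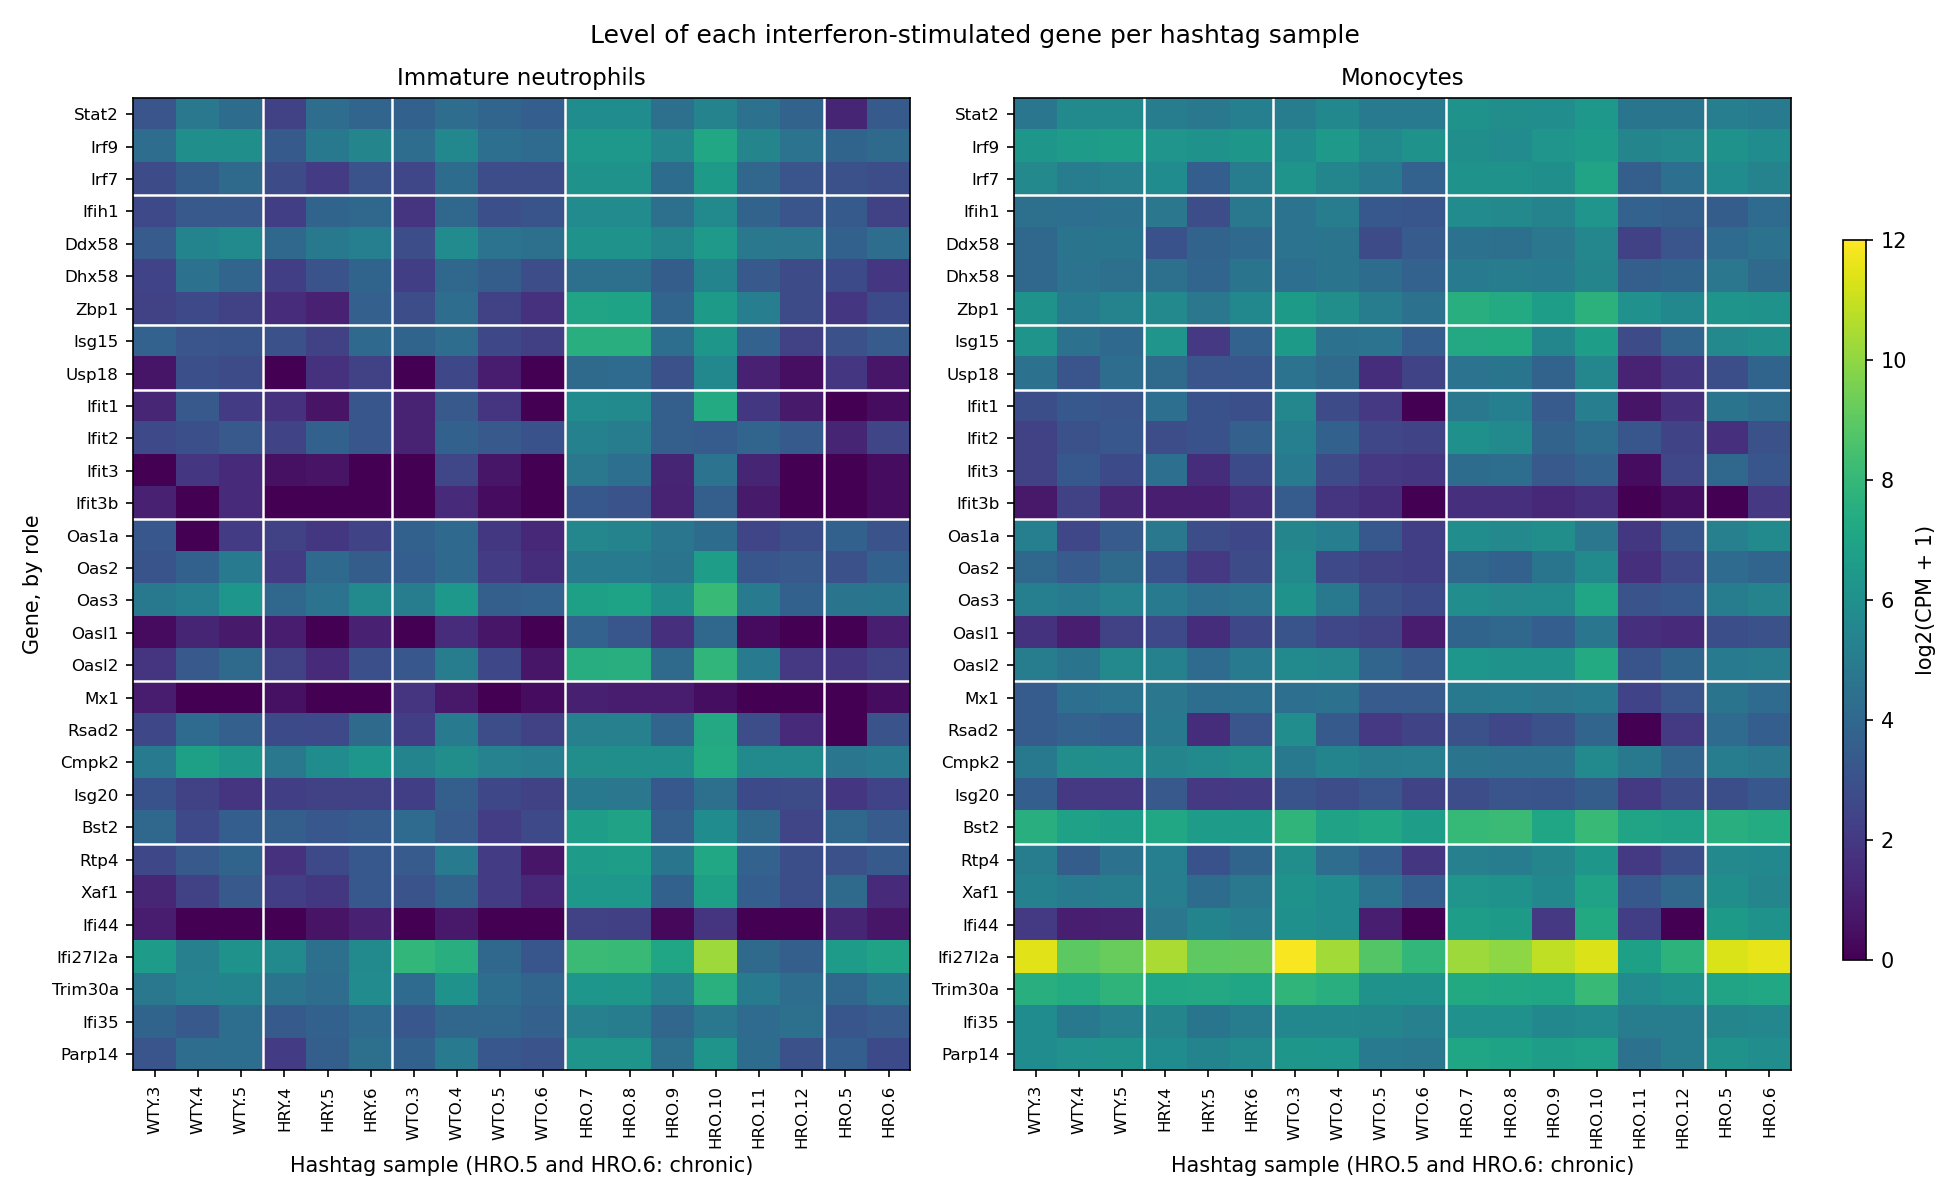
Level of each gene as log2(CPM + 1) (colour) by hashtag sample (x axis) and gene ordered by role (y axis). In immature neutrophils the columns of HRO.7, HRO.8 and HRO.10 are brighter across most rows, and Ifi27l2a reaches 1214 CPM in HRO.10.

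The comparison of HRO with WTO was made in 6 classes with edgeR's quasi-likelihood test, with group and pool as terms and p-values adjusted over all genes. In immature neutrophils 3 of 29 genes tested rose, against 1.62% of all genes that rose. The list's median log2 fold change was 1.23, against 0.01 for all genes, and 29 of 29 estimates were above 0. Mx1 failed the filter, being at most 2.48 CPM in every sample.

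Of the genes that rose, 2 belong to the OAS family. Oas2 was 29.2, 29.1, 23.4, 104, 8.37 and 9.29 CPM in HRO.7 to HRO.12 and 11.1, 16.1, 3.20 and 1.95 CPM in WTO.3 to WTO.6. Its log2 fold change was 1.13 ± 0.24 (SE, adjusted p = 0.0168). Within WBM_2 and within WBM_4 every HRO value of Oas2 lay above every WTO value, although the groups overlap when pools are joined.

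Oas1a ranged from 4.74 (HRO.11) to 45.4 CPM (HRO.7) in HRO, with a median of 21.5, and was 12.4, 16.4, 2.88 and 1.63 CPM in WTO (log2 fold change 1.25 ± 0.29, adjusted p = 0.0284). Rtp4 ranged from 6.33 (HRO.12) to 141 CPM (HRO.10), with a median of 59.6, and was 9.91, 28.6, 3.20 and 0.65 CPM in WTO (1.72 ± 0.45, adjusted p = 0.0445). Both were low in HRO.11 and HRO.12 and lowest in the WTO samples of the same pool.

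Larger estimates with a wider spread did not pass. Isg15 was 192, 184, 19.2, 81.7, 12.6 and 4.22 CPM in HRO.7 to HRO.12 and 3.91 to 18.9 CPM in WTO, with a log2 fold change of 2.35. Its high values belong to HRO.7, HRO.8 and HRO.10, with HRO.11 and HRO.12 inside the WTO range and HRO.9 just above it. The IFIT family (4 tested), the regulators (3), the sensors (4) and the antiviral effectors (4) had no gene past the threshold, with median log2 fold changes of 1.90, 0.84, 0.80 and 0.59.

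The count of 3 was 22 without HRO.9, 1 without HRO.7, HRO.8 or WTO.6, and 0 without WTO.4. It was also 0 without both HRO.7 and HRO.8, and 0 without the pool term. HRO.7 and HRO.8 had 69.6% and 69.1% of their immature neutrophils in cluster 4, whose leading genes include Gbp2, Ifit3 and Igtp, while HRO.10 had 48.9% in cluster 5 and 29.3% in cluster 2.

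In mature neutrophils 5 of 27 genes rose in HRO against WTO, against 1.66% of all genes, and 27 of 27 estimates were above 0 (median 0.78, all genes 0.00). Isg15 was 341, 295, 403, 119 and 75.9 CPM in HRO.7, HRO.9, HRO.10, HRO.11 and HRO.12, and 89.0, 96.6, 70.5 and 31.2 CPM in WTO (log2 fold change 1.59 ± 0.25, adjusted p = 0.000513). The lowest HRO sample lay below the 2 highest WTO samples, and the other 4 lay above them all.

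Zbp1 was 341, 112, 255, 117 and 62.7 CPM in the same HRO samples, above the 15.6 to 54.7 CPM of the 4 WTO samples without overlap (1.99 ± 0.34, adjusted p = 0.00102). Irf7 was 262, 120, 289, 33.3 and 56.1 CPM in HRO and 20.5 to 65.4 CPM in WTO (1.21 ± 0.28, adjusted p = 0.0187). Here HRO.11 and HRO.12 fell inside the range of WTO.

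Xaf1 was 131, 48.6, 276, 42.8 and 16.5 CPM against 0 to 25.4 CPM (1.62 ± 0.40, adjusted p = 0.0284). Rtp4 was 236, 304, 408, 126 and 158 CPM against 46.8 to 200.1 CPM (0.79 ± 0.19, adjusted p = 0.0284). In both, HRO.10 held the highest value. No gene of the IFIT or OAS families passed in this comparison, although Ifit1 reached 701 CPM in HRO.10. The count of 5 was 2 without HRO.10, WTO.3 or WTO.4, 3 without WTO.6, and 0 without the pool term.

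In monocytes 2 of 29 genes rose in HRO against WTO, against 3.63% of all genes, and 23 of 29 estimates were above 0 (median 0.54, all genes 0.02). Zbp1 ranged from 47.3 (HRO.12) to 212 CPM (HRO.10) in HRO, with a median of 133, and was 90.7, 59.9, 31.7 and 21.8 CPM in WTO (log2 fold change 1.43 ± 0.23, adjusted p = 0.00252). Oas3 ranged from 7.49 (HRO.11) to 131 CPM (HRO.10), with a median of 50.9, and was 70.6, 27.6, 6.93 and 5.44 CPM in WTO (0.98 ± 0.17, adjusted p = 0.0038). Both groups were low in WBM_4, and within each shared pool the HRO values of both genes were the higher ones.

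Cmpk2 moved the other way in the estimate, at -0.58, without passing, with 13.9 to 50 CPM in HRO and 27.7 to 41.3 CPM in WTO. The monocyte count of 2 was 14 without HRO.9, 6 without WTO.5 and 0 without WTO.4, and it was 0 without the pool term. Of the monocytes, 99.4% in HRO.7 and 99.2% in HRO.8 lay in cluster 3, led by Iigp1, Cxcl9 and other genes known from interferon gamma responses, whereas 44.9% of those of HRO.10 lay in cluster 1 and 32.2% in cluster 7. In WBM_4 alone the list did not follow the pattern, since 7 of 30 genes were higher in HRO.11 and HRO.12 than in WTO.5 and WTO.6, with a median difference of -0.29 on the log2(CPM + 1) scale.

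In myeloid progenitors 2 of 25 genes rose, against 0.254% of all genes, and 24 of 25 estimates were above 0 (median 1.16, all genes -0.01). Oas1a ranged from 7.51 (HRO.12) to 42 CPM (HRO.7) in HRO, with a median of 19.2, and was 17.4, 9.88, 2.68 and 6.15 CPM in WTO (log2 fold change 1.64 ± 0.33, adjusted p = 0.0265). Rtp4 was 39.5, 30.1, 3.58, 49.2, 1.66 and 2.25 CPM in HRO.7 to HRO.12 and 5.81, 1.46, 0 and 0 CPM in WTO (4.03 ± 0.88, adjusted p = 0.0497). Only HRO.7, HRO.8 and HRO.10 were above 5.81 CPM.

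The most abundant listed genes of myeloid progenitors did not pass. Bst2 ranged from 52.4 (HRO.9) to 247 CPM (HRO.7) in HRO and was 194, 34.0, 75.2 and 53.6 CPM in WTO (1.35 ± 0.40, adjusted p = 0.195). Ifi27l2a was 1.99 to 77.9 CPM in HRO, and 775 CPM in WTO.3 against 1.76 to 26.7 CPM in the other WTO samples (-0.45 ± 0.39, adjusted p = 0.769). Trim30a and Irf9 had log2 fold changes of 0.36 ± 0.25 and 0.78 ± 0.29. The count of 2 was 15 without HRO.9, 1 without HRO.8, HRO.11, HRO.12 or WTO.6, and 0 without HRO.7, HRO.10, WTO.3, WTO.4 or WTO.5, and it was 0 without the pool term.

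In B lineage cells 2 of 12 genes rose, against 6.93% of all genes, and only 5 of 12 estimates were above 0 (median -0.03). Bst2 was 269, 314, 38.4 and 109.9 CPM in HRO.7, HRO.8, HRO.9 and HRO.11 and 77.2, 39.8, 48.9 and 36.5 CPM in WTO (log2 fold change 2.24 ± 0.61, adjusted p = 0.0274). Zbp1 was 67.8, 71.6, 26.6 and 62.4 CPM against 9.65, 29.4, 0 and 11.1 CPM (1.95 ± 0.53, adjusted p = 0.0279). In both genes HRO.9 lay within the WTO range. The count was 1 without HRO.7, HRO.8, WTO.4 or WTO.5 and 0 without HRO.11, without WTO.6 or without both HRO.7 and HRO.8.

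In T or NK cells edgeR called 0 of 12 genes, with 0 at an unadjusted p under 0.05 and 0 by DESeq2, and it called 0% of all genes as higher. The mean level was nevertheless 4.24 to 5.38 in HRO, and 2.98 to 5.02 in WTO, where WTO.4 alone reached the HRO range. Of the most abundant genes, Ifi27l2a was 514, 519, 1231, 754, 236 and 240 CPM in HRO.7 to HRO.12 and 857, 513, 137 and 123 CPM in WTO (log2 fold change 0.55 ± 0.33, adjusted p = 0.576). Trim30a (-0.41 ± 0.34), Parp14 (0.32 ± 0.30) and Bst2 (0.35 ± 0.36) were closer to 0.

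The comparison of HRO with HRY gave the largest counts of the listed genes. In immature neutrophils 13 of 29 rose, against 0.313% of all genes, and these 13 stood among only 29 genes that rose in the whole table. The median log2 fold change was 2.77 (all genes -0.02). By role the OAS family rose in 4 of 5 genes (Oas1a, Oas2, Oas3 and Oasl2), the regulators in 2 of 3 (Irf7 and Irf9), and the sensors in 0 of 4. Single or paired calls came from the ISG15 system (Usp18), the IFIT family (Ifit1), the antiviral effectors (Rsad2 and Cmpk2) and the other genes (Rtp4, Xaf1 and Ifi27l2a).

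Ifi27l2a ranged from 11.4 (HRO.12) to 1214 CPM (HRO.10) in HRO, with a median of 206, and was 52.2, 20.7 and 53.2 CPM in HRY (log2 fold change 4.37 ± 0.51, adjusted p = 0.000459). Oas3 was 111, 123, 61.9, 283, 29.0 and 12.2 CPM in HRO.7 to HRO.12 and 15.6, 22.5 and 52.1 CPM in HRY (2.66 ± 0.43, adjusted p = 0.0094). Irf9 was 84.2, 84.4, 45.4, 144, 42.7 and 22.4 CPM against 9.62, 28.2 and 43.1 CPM (1.99 ± 0.33, adjusted p = 0.0094). In all 3 genes HRO.10 was highest and HRO.12 lay inside or below the HRY range.

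Oasl2 had a still larger ratio, with 178, 181, 16.7, 241, 28.5 and 2.96 CPM in HRO and 4.12, 1.73 and 6.72 CPM in HRY (5.28 ± 1.06, adjusted p = 0.0387). Rtp4 was 2.29, 5.18 and 8.96 CPM in HRY, against the HRO values given above (4.28 ± 0.65, adjusted p = 0.00593). Cmpk2, with 51.9 to 164 CPM in HRO and 27.0 to 78.4 CPM in HRY, changed least of the genes named (1.22 ± 0.18, adjusted p = 0.00593). Fitted values account for pool and so differ from the ratios of the plain means. The count of 13 was 26 without HRO.9, 3 without HRY.5 and 0 without HRO.10, the only HRO sample beside HRY samples, and it was 0 without the pool term.

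In mature neutrophils 19 of 27 genes rose in HRO against HRY, against 1.53% of all genes, with a median log2 fold change of 2.14 (all genes -0.07). All 3 IFIT genes tested rose, both genes of the ISG15 system, 4 of 5 of the OAS family, 3 of 4 antiviral effectors and 1 of 4 sensors. Ifit1 was 105, 160, 701, 19.0 and 3.30 CPM in HRO.7, HRO.9, HRO.10, HRO.11 and HRO.12, and 6.91, 58.3 and 25.4 CPM in HRY (4.15 ± 0.39, adjusted p = 1.83e-07). Its 2 samples of WBM_4 lay within or below the HRY range.

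Xaf1 was 3.45, 14.6 and 11.7 CPM in HRY, below every HRO value (4.34 ± 0.49, adjusted p = 3.38e-06), and Isg15 was 41.4, 43.7 and 66.5 CPM in HRY, below them too (2.92 ± 0.34, adjusted p = 3.95e-06). Irf7 was 10.4, 34.0 and 29.4 CPM in HRY, a range that reached the lowest HRO sample, HRO.11 at 33.3 CPM (3.18 ± 0.37, adjusted p = 3.95e-06). Ifit3b was 78.7, 48.6, 195, 14.3 and 16.5 CPM in HRO and 0, 9.72 and 19.6 CPM in HRY (3.78 ± 0.46, adjusted p = 7.45e-06). Oasl2 was 630, 413, 1134, 240 and 119 CPM in HRO and 24.2, 223 and 170 CPM in HRY (2.49 ± 0.35, adjusted p = 7.53e-05). The count of 19 was 0 without HRO.10, 12 by DESeq2 and 1 without the pool term. Without HRO.10 no pool held both groups, and the estimates of Xaf1 (-3.44) and Ifit3b (-0.60) were negative. Why the sign changed was not tested.

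In monocytes 19 of 29 genes rose in HRO against HRY, against 2.67% of all genes, with a median log2 fold change of 1.73 (all genes -0.01). The whole OAS family rose (5 of 5), both genes of the ISG15 system and 3 of 4 sensors (Zbp1, Ddx58 and Ifih1), but 1 of 3 IFIT genes and 1 of 5 antiviral effectors tested. Oas3 was 29.0, 20.1 and 22.7 CPM in HRY, between the WBM_4 samples of HRO (7.49 and 9.04 CPM) and the other 4 (49.4 to 131 CPM), with a log2 fold change of 2.55 ± 0.20 (adjusted p = 5.94e-06). Zbp1 was 49.7, 26.2 and 48.3 CPM in HRY (2.44 ± 0.30, adjusted p = 0.000236), and HRO.12 at 47.3 CPM was the only HRO sample inside that range.

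Oasl2 was 77.3, 69.1, 67.9, 159, 7.80 and 13.6 CPM in HRO.7 to HRO.12 and 38.3, 17.1 and 29.0 CPM in HRY (2.32 ± 0.35, adjusted p = 0.00142). Rtp4 was 36.5, 31.5, 42.3, 79.5, 3.12 and 6.26 CPM in HRO and 35.2, 7.05 and 13.4 CPM in HRY (2.48 ± 0.40, adjusted p = 0.00268). Xaf1 (2.07 ± 0.33, adjusted p = 0.00268) and Parp14 (1.24 ± 0.23, adjusted p = 0.00694) showed the same order, with HRO.11 and HRO.12 below all HRY samples. The count of 19 was 0 without HRO.10 and 0 without the pool term.

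**Figure D3:**
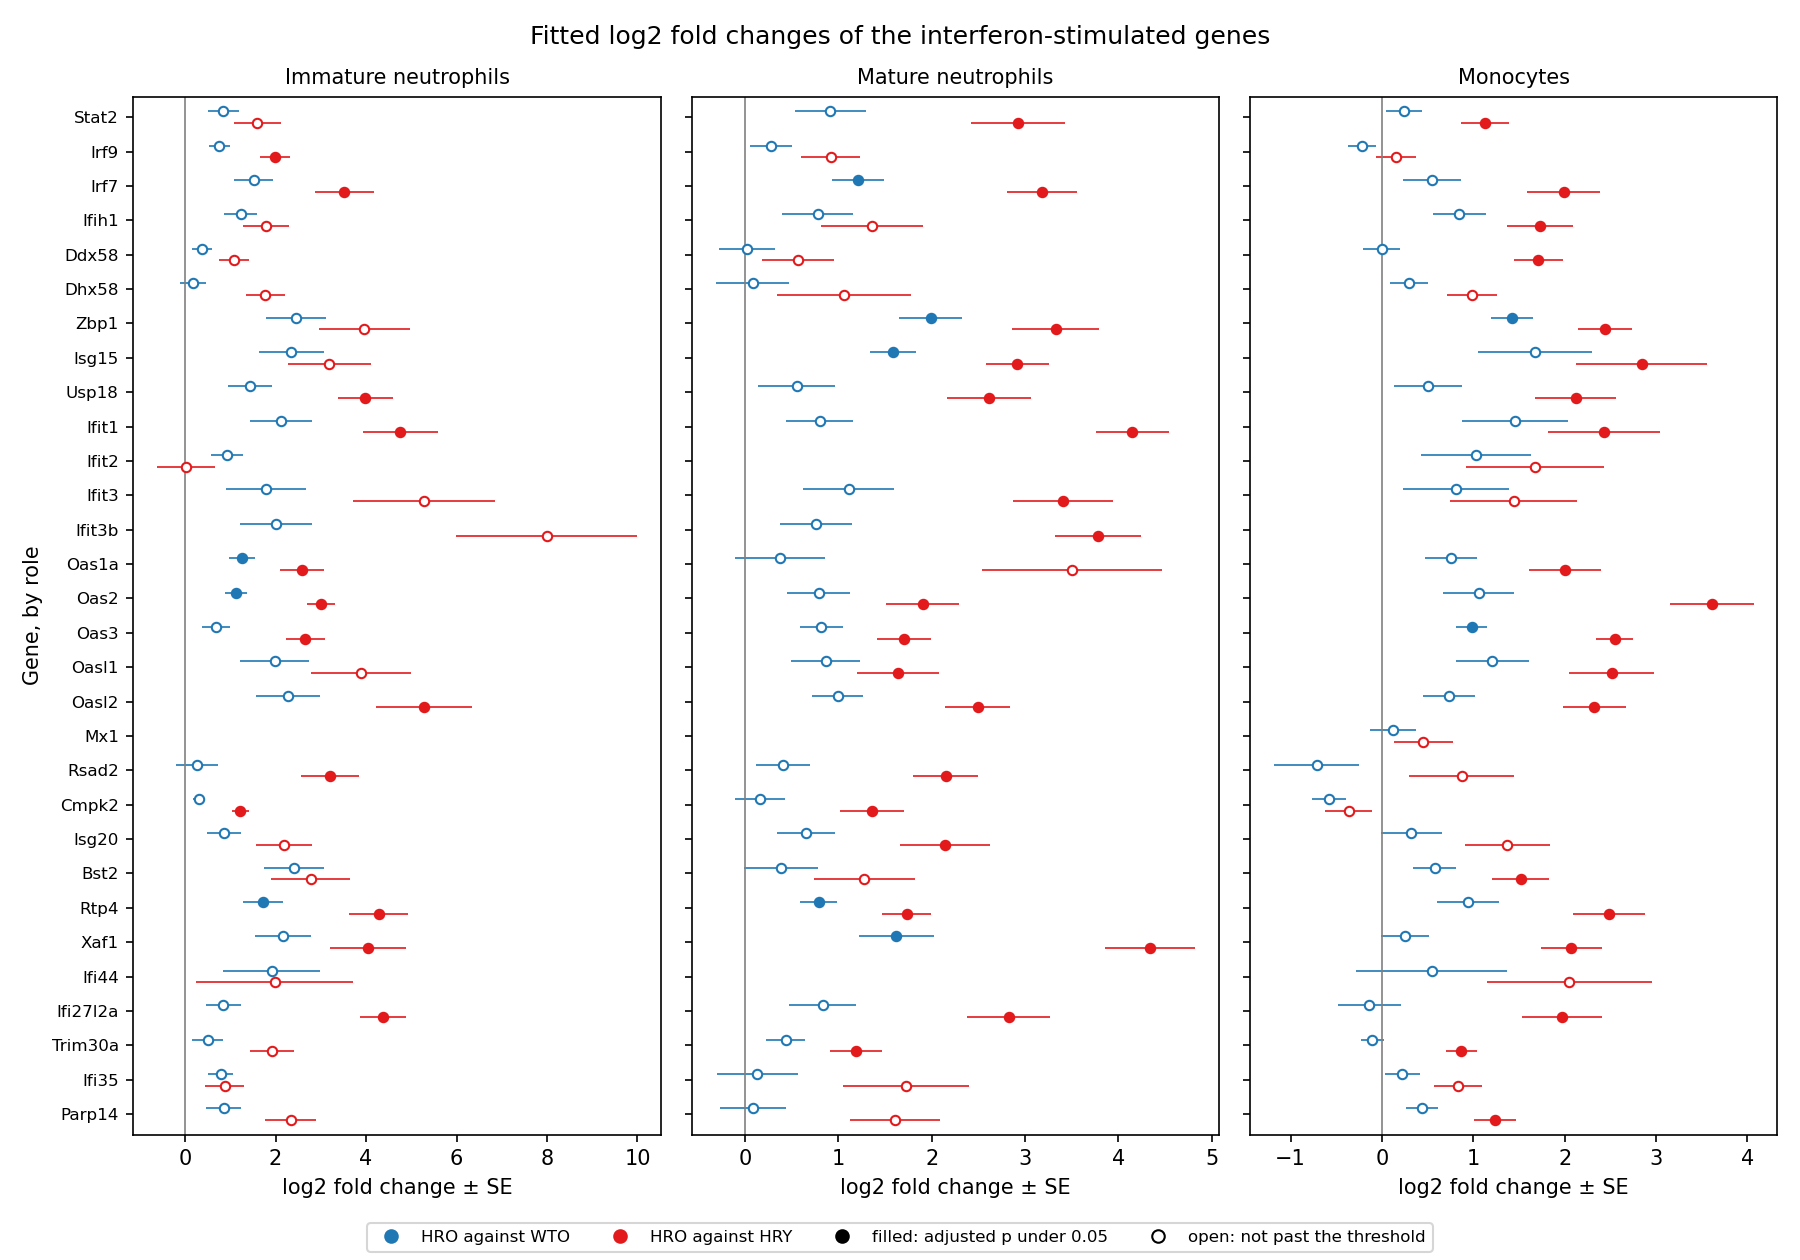
Fitted log2 fold change with its SE (x axis) of each gene (y axis) in HRO against WTO and HRO against HRY, by class; filled points passed an adjusted p of 0.05. In immature neutrophils 29 of 29 estimates lie above 0 in both comparisons, with 3 and 13 of them past the threshold.

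In myeloid progenitors edgeR called 0 of 25 genes in HRO against HRY, with 14 at an unadjusted p under 0.05 and 0 by DESeq2, beside 0.0106% of all genes. The median log2 fold change was 2.29 and 24 of 25 estimates were above 0. Of the most abundant genes, Bst2 was 247, 229, 52.4, 164, 116 and 83.4 CPM in HRO.7 to HRO.12 and 95.2, 37.95 and 48.1 CPM in HRY (2.09 ± 0.62, adjusted p = 0.348). Irf9 had a log2 fold change of 1.92 ± 0.51 (adjusted p = 0.247), Ifi27l2a 1.77 ± 0.52 (adjusted p = 0.325) and Trim30a 1.06 ± 0.41 (adjusted p = 0.537). Without HRO.9 the count was 11.

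WTO and WTY were compared in the same classes, although they met only in WBM_1, with WTO.3 and WTY.3. edgeR called 0 of 29 genes in immature neutrophils (0% of all genes), with 8 at an unadjusted p under 0.05, and 0 of 29 in monocytes (0%), with 15. It called 0 of 25 in myeloid progenitors (0%), with 2. DESeq2 called 0 in all 3 classes. In mature neutrophils 1 of 27 rose, against 0.0387% of all genes, and DESeq2 called 0. This gene, Ifit1, was 34.2, 84.0, 32.0 and 3.12 CPM in WTO and 8.06, 66.1 and 79.5 CPM in WTY, so the ranges overlap. Its plain mean was lower in WTO (38.3 CPM) than in WTY (51.2 CPM). The edgeR estimate, which accounts for pool, had the opposite sign (2.60 ± 0.49, adjusted p = 0.0309). The call was lost without WTO.4, WTY.4 or WTY.5, while the count was 4 without WTO.3 and 3 without WTY.3, and without the pool term it was 0. It was also 0 with the sample numbers as a replicate block in place of the pool term (3 pairs).

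Ifi27l2a gave the smallest adjusted p among the abundant genes of this comparison in immature neutrophils. It was 246, 187, 15.7 and 8.14 CPM in WTO and 95.8, 36.1 and 67.3 CPM in WTY (2.80 ± 0.53, adjusted p = 0.217). The medians of the estimates were above 0 in immature neutrophils (1.03), mature neutrophils (1.28), monocytes (0.99) and myeloid progenitors (0.44), with all genes at -0.06 to 0.00. Only WTO.3 and WTY.3 shared a pool, so the other samples were linked through other groups. Group means before the pool term did not show medians above 0, with mean levels of 2.91 and 3.18 in immature neutrophils and 4.44 and 4.79 in mature neutrophils for WTO and WTY.

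Between HRY and WTY no listed gene passed in any of the 4 classes by edgeR or by DESeq2. The counts were 0 of 29 in immature neutrophils (0% of all genes, 2 at an unadjusted p under 0.05), 0 of 27 in mature neutrophils (0.0774%, 1), 0 of 29 in monocytes (0%, 5) and 0 of 25 in myeloid progenitors (0%, 1). The median estimates were all slightly negative, from -0.38 in myeloid progenitors to -0.27 in monocytes. Trim30a in monocytes, at 145, 152 and 136 CPM in HRY and 183, 163 and 226 CPM in WTY, did not overlap but did not pass either (-0.40 ± 0.15, adjusted p = 0.760). Within WBM_3, the pool with 2 samples of each group, 8 of 29 detected genes were higher in HRY in immature neutrophils and 5 of 30 in monocytes. Most genes were also lower in HRY in mature neutrophils there, and in both neutrophil classes within WBM_1. Monocytes of WBM_1 ran the other way, with most genes higher in HRY.4 than in WTY.3. Myeloid progenitors of WBM_3 were split about evenly. Shares of all genes are not given beside these counts, so the counts alone do not set the list apart.

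The chronic samples were set against HRO, although no pool held both and the difference rests on the other samples of WBM_1. In immature neutrophils edgeR called 0 of 29 genes lower (0% of all genes), with 14 at an unadjusted p under 0.05 and 0 by DESeq2, and in myeloid progenitors 0 of 25 (0%), with 8 and 0. In mature neutrophils 1 of 27 fell, against 0.0193% of all genes. This was Isg15, at 45.7 (HRO.5) and 51.2 CPM (HRO.6) beside 75.9 to 403 CPM in HRO (-2.91 ± 0.45, adjusted p = 0.00255). In monocytes 1 of 29 fell, against 0.00966% of all genes, namely Oas3, at 32.2 and 40.7 CPM (-1.91 ± 0.26, adjusted p = 0.0146). Its chronic values lie inside the HRO range of 7.49 to 131 CPM, and DESeq2 called 5 genes lower there.

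The Isg15 call and the Oas3 call were lost without HRO.10 or HRO.6, and the Oas3 call also without HRO.5, while without HRO.9 the counts were 2 and 6 in the 2 classes and 3 in myeloid progenitors. Within WBM_1 the chronic samples were also set beside the 3 samples of other groups (HRY.4, WTO.3, WTY.3). A higher chronic mean was found in 14 of 30 genes in immature neutrophils (median difference -0.00; 52.7% of all genes were higher), in 12 of 30 in monocytes (-0.12; 48.6%) and in 15 of 30 in myeloid progenitors (-0.01; 49.7%). It was found in 18 of 29 in mature neutrophils (0.32; 54.2%), where both chronic samples lay above the other 3 for 6 genes and below them for 0, against 10.4% of all genes above, and in 19 of 30 in T or NK cells (0.34; 59.4%). Zbp1 in monocytes was 73.1 and 68.1 CPM in the chronic samples, and 70.3, 90.7 and 49.7 CPM in the others of that pool.

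Whether HRO exceeded WTO by more than HRY exceeded WTY was tested as an interaction. It passed for 2 of 27 genes in mature neutrophils, against 0.677% of all genes, namely Isg15 (1.94 ± 0.39, adjusted p = 0.0162) and Irf7 (1.87 ± 0.45, adjusted p = 0.0416). It passed for 1 of 29 in monocytes, against 0.56% of all genes, which was Oas3 (1.52 ± 0.25, adjusted p = 0.0115), with Zbp1 next (1.52 ± 0.36, adjusted p = 0.0671). edgeR called 0 of 29 in immature neutrophils (0% of all genes), with 12 at an unadjusted p under 0.05 and 1 by DESeq2. In myeloid progenitors it called 0 of 25 (0%), with 13 and 0.

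Single samples decided these interaction calls. In mature neutrophils the count of 2 was 6 without HRO.9, 4 without WTY.4, 1 without HRO.10, HRY.4, HRY.6 or WTO.3, and 0 without HRY.5, WTO.4, WTY.3 or WTY.5. In monocytes the count of 1 was 3 without HRO.9, 2 without HRO.11, and 0 without HRY.6, WTO.4, WTY.3 or WTY.5. Without HRO.9 it was 5 in immature neutrophils and 9 in myeloid progenitors. Without the pool term it was 0 in both classes with a call.

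Within a pool the listed genes could be read free of the pool term. In WBM_2, 28 of 30 genes had a higher mean in HRO than in WTO.4 in immature neutrophils (median difference 0.92 on the log2(CPM + 1) scale, all genes -0.04), 24 of 30 in mature neutrophils (0.66), 29 of 30 in myeloid progenitors (1.05) and 23 of 30 in monocytes (0.48). Of all genes, 45.0%, 33.3%, 30.99% and 37.8% were higher in these classes. In WBM_4 it was 25 of 29 (0.49), 20 of 29 (0.43), 20 of 28 (0.32) and 7 of 30 (-0.29) in the same order of classes, beside 62.6%, 53.8%, 52.4% and 50.02% of all genes. The shares in WBM_4 thus lay nearer to those of all genes than in WBM_2, and in monocytes below them.

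In WBM_3, HRO.10 lay above both HRY samples in 29 of 30 genes in immature neutrophils (33.3% of all genes) and above both WTY samples in 30 (23.6% of all genes), with median differences of 2.74 and 2.55. In mature neutrophils the medians were 2.08 and 2.10, and in monocytes 1.82 and 1.66. Within WBM_2, HRO.7 and HRO.8 lay above HRO.9 in 29 of 30 genes in immature neutrophils (28.0% of all genes), with a median difference of 1.44, but in monocytes by a median of only 0.18.

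The share of cells with UMIs of at least 5 listed genes showed whether few or many cells carried them. Each cell was thinned to 1000 UMIs, since depth differed between samples, and cells below 1000 were left out (0 to 59 in each sample of immature neutrophils). In immature neutrophils the share was 14.0% in HRO.7 (exact Clopper-Pearson 95% interval 12.4% to 15.7%, counting error only), 12.1% in HRO.8 and 25.2% in HRO.10 (22.1% to 28.5%). It was 1.14% in HRO.9, 2 of 352 cells in HRO.11 and 0.418% in HRO.12, within the 0 to 2.49% of WTO. Unthinned shares were 80.1%, 83.3% and 67.0% in HRO.7, HRO.8 and HRO.10, and 34.0%, 27.0% and 8.54% in HRO.9, HRO.11 and HRO.12.

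In mature neutrophils 80.0% of 95 HRO.10 cells passed this mark (70.5% to 87.5%), against 28.3% in HRO.9, 5.63% in HRO.11, 5.31% in HRO.12, 15.3% in WTO.4 and at most 11.8% in any sample of WTY or HRY. More cells of this class fell below 1000 UMIs and were left out. It was 387 beside 587 kept in HRY, 425 beside 953 in WTY, 111 beside 675 in HRO and 100 beside 899 in WTO. These shares thus describe only the deeper cells, a part that differed by group. In monocytes the share was 24.1% in HRO.10, 17.8% in HRO.7 and 17.2% in HRO.8, with 7.56% in HRO.9, 0 of 213 cells in HRO.11 (upper limit 1.72%) and 1.09% in HRO.12. The other groups ran from 0 (WTO.6) to 9.94% (WTO.4). Unthinned, the monocyte shares were 91.9%, 96.9% and 96.4% in HRO.10, HRO.7 and HRO.8 and 51.2% and 58.9% in HRO.11 and HRO.12, and the mature neutrophil shares were 80.0% in HRO.10 and 47.3% in HRO.9. Erythroid cells, which are not a known main site of this response, gave 0 to 3.70% over 10 samples with median depths of 3124 to 32954 UMIs.

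**Figure D4:**
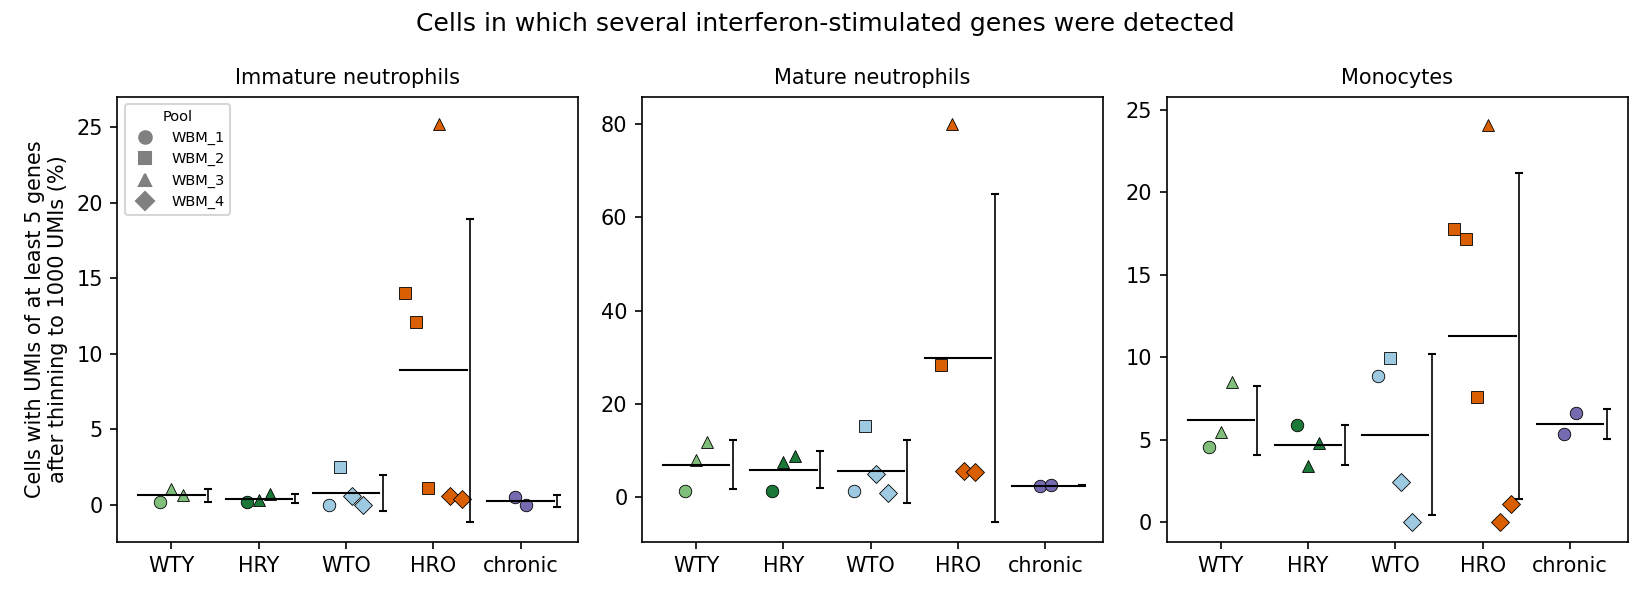
Share of cells with UMIs of at least 5 of the genes after thinning each cell to 1000 UMIs (y axis, percent) per hashtag sample by group (x axis) in 3 classes. Shapes mark pools, and cells below 1000 UMIs were left out. In mature neutrophils HRO.10 reaches 80.0%, and the next sample, HRO.9, 28.3%.

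Genes of the pathway outside the list were counted in the same fits, 75 in all. Shares of all genes called are given beside the counts. In HRO against WTO, 4 of 62 tested rose in immature neutrophils, against 1.62% (Ly6e 1.55, Lgals3bp 2.91, Slfn8 2.00 and Gbp2 4.13 in log2 fold change). In mature neutrophils 6 of 49 rose, against 1.66%, among them Ly6e (1.19), Gbp2 (2.19) and Socs3 (1.26), an inhibitor of cytokine signalling. In monocytes 12 of 65 rose, against 3.63%, and 1 fell, against 2.85%, led by Socs3 (3.53), Myd88 (0.98), the Toll-like receptor adaptor, and Lgals3bp (1.23), while Irf8, a transcription factor of monocytes and dendritic cells, fell by 0.46. In myeloid progenitors 2 of 60 rose, against 0.254% (Lgals3bp 1.60 and Ifitm3 1.69). In B lineage cells 5 of 52 rose and 4 fell, against 6.93% and 5.4%. Beside HRY the counts that rose were 5 of 62, 14 of 49, 18 of 65 and 1 of 60 in the first 4 classes, against 0.313%, 1.53%, 2.67% and 0.0106%, and 1 of 65 fell in monocytes, against 1.13%.

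In immature neutrophils the high HRO samples were set side by side over whole lists. HRO.10 lay above both HRO.7 and HRO.8 in 17 of the 30 listed genes and below both in 11, and above both in 16 and below both in 12 of 30 other genes known to be induced by type I interferon. Of 10 genes led by interferon gamma, it lay below both in 10. The matching shares of all genes were not counted, so these counts cannot be called particular to the lists. HRO.10 had more Ifit1 than HRO.7 and HRO.8 (159 CPM against 54.9 and 52.1) and more Slfn5, another gene known to be induced by type I interferon (114 against 15.5 and 16.4). Isg15 ran the other way, at 81.7 CPM in HRO.10 and 192 and 184 CPM in HRO.7 and HRO.8. Of the gamma-led genes, Gbp2, a guanylate-binding GTPase, was 28.1 CPM in HRO.10 and 218 and 206 CPM in HRO.7 and HRO.8, and Igtp was 52.6 CPM against 159.7 and 172 CPM. Iigp1 was 0 CPM in HRO.10 and 66.6 and 64.2 CPM in the other 2, and Cxcl10 was 2.13 CPM against 55.9 and 66.9 CPM. These are values of single samples, chosen after they were seen, with no test. HRO.10 came from WBM_3, and HRO.7 and HRO.8 from WBM_2. Median UMIs per kept cell were 3576.5 in HRO.10 and 8428.5 and 7353 in HRO.7 and HRO.8. Sample, pool and depth cannot be told apart in this comparison.

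**Figure D5:**
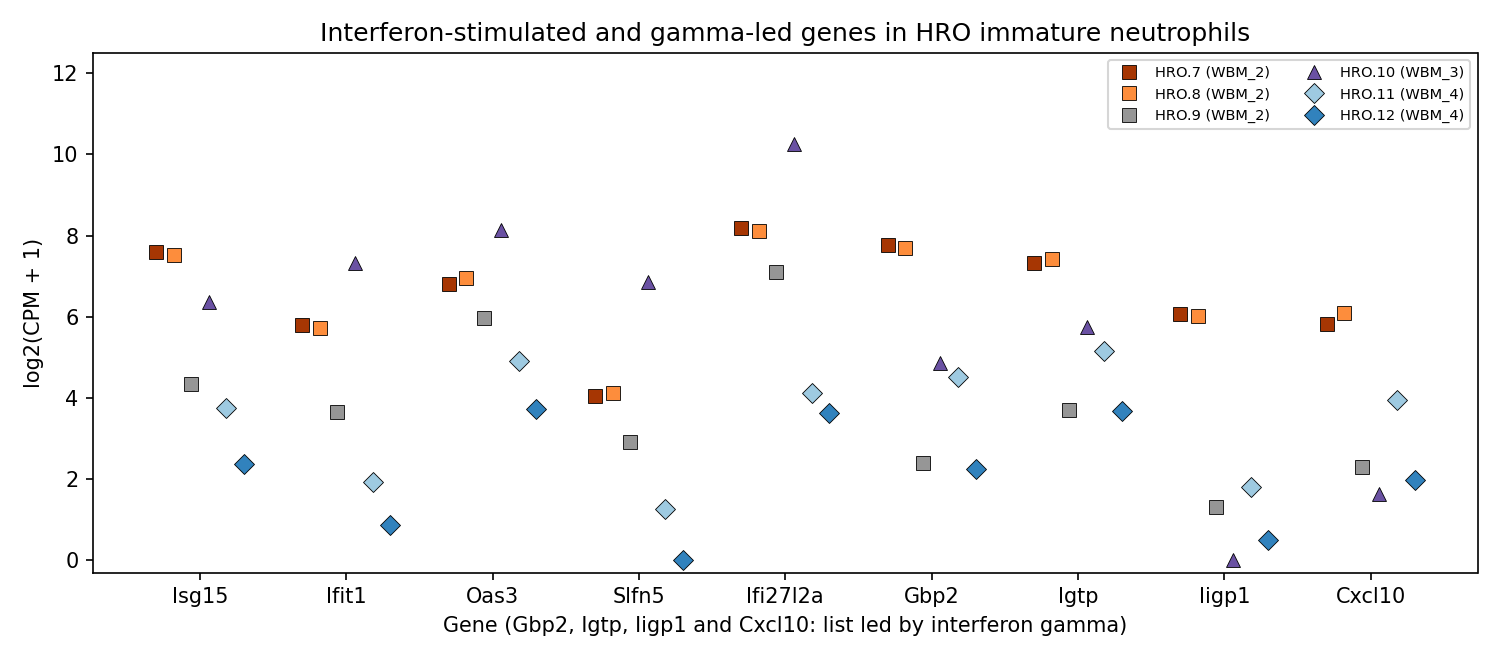
Level as log2(CPM + 1) (y axis) of 5 type I interferon-induced and 4 gamma-led genes (x axis) in immature neutrophils of the 6 HRO samples. HRO.10 is highest for Ifit1, Slfn5 and Ifi27l2a, and HRO.7 and HRO.8 are highest for Gbp2, Igtp, Iigp1 and Cxcl10.

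The ligand genes were barely detected. Ifnb1 was at most 0.84 CPM in monocytes (HRO.7), and Ifna1 and Ifna2 were 6.41 and 4.81 CPM in plasmacytoid dendritic cells of HRO.7 and 0 in the other 9 samples there. In conventional dendritic cells of HRO.7 and HRO.8, Ifnb1 was 2.61 and 1.85 CPM, Ifna1 0.69 and 1.11 CPM and Ifna2 3.44 and 2.22 CPM. All 3 genes were 0 CPM in that class in HRO.9 and HR.7. Ifng, the interferon gamma gene, was 320 and 252 CPM in T or NK cells of HRO.7 and HRO.8, 309 CPM in HRO.12, 94.2 CPM in HRO.11, 60.6 CPM in HRO.10 and 40.2 CPM in HRO.9. Values of the other groups are not given here, so these levels do not set HRO apart. S100a8, an abundant neutrophil transcript, differed by pool in monocytes, at 24005 to 28034 CPM in WBM_1 and 618 to 5934 CPM in the other pools. In erythroid cells S100a8 was 20685 to 39999 CPM in WBM_1 and 288 to 5858 CPM in the other pools. In plasmacytoid dendritic cells it was 8810 to 26592 CPM and 240 to 5996 CPM. Rsad2 in erythroid cells was likewise 81.5 to 265 CPM in WBM_1 and 1.56 to 25.8 CPM in the other pools. Ifi27l2a was also high in WBM_1 monocytes (1409 to 3732 CPM) and progenitors (158 to 775 CPM). The part of stray neutrophil RNA in these levels, and in the order of the classes, was not tested.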

How the data were processed

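The files held UMI counts per gene and cell barcode, deposited by the authors without normalisation. Per the file headers they came from Cell Ranger 3.0.0 (WBM_1) and 3.1.0 (all others), and the submitters' processing notes name bcl2fastq, Seurat and mm10. The 31 genes and all lists were chosen with earlier results of these data known. Hashtags were assigned with HTODemux (Seurat 5.3.0, quantile 0.99). Of the 2078 barcodes shared by WBM_3a and WBM_3b, the copy with fewer UMIs was dropped. Cells with at least 300 genes and at most 10% mitochondrial counts were clustered in scanpy 1.11.5 (2000 variable genes without the listed ones, 30 components, Leiden resolution 1), giving 32 clusters, of which 4 stayed unnamed. Clusters were named by marker lists, and 75.6% of cells had the same class by their own marker score. Scrublet called no doublet in WBM_3a, WBM_3b and WBM_4 and so did not work there, and doublets were removed by hashtag only.

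For each class, the counts of a hashtag sample's cells (at least 20) were added up and fitted over all groups with edgeR 4.0.16 (R 4.3.3; quasi-likelihood test, group and pool as terms, TMM, filterByExpr), with Benjamini-Hochberg adjustment over all genes at 0.05. On simulated data at log2 changes of 1, 98% of changed genes were recovered in immature neutrophils and 62% in mature neutrophils for HRO against WTO. The changed genes had a mean of at least 20 CPM and were shifted alike in all HRO samples, with no pool effect. In immature neutrophils 14 of the listed genes had such a mean. The recovery therefore does not carry over to lower genes or to shifts in only some HRO samples. Values per sample are CPM, with a pseudocount of 1 CPM before logs. Named in full, per class and comparison, were up to 6 listed genes with the smallest p past the threshold and a mean of at least 20 CPM, or, with fewer than 2 such genes, the 4 with the highest mean. Alternatives covered DESeq2 1.42.0, scaling, the filter, pool, clustering and left-out samples. HR.7 and HR.AE entered no test. Sample numbers 3, 4 and 5 occur in both WTO and WTY, and same-numbered samples deviated together from their groups' means (correlations of 0.33, 0.15 and 0.12 in immature neutrophils), although WTO.4 correlated more with WTY.5 (0.18), and WTO.3 and WTY.3 also share a pool. A fit with the number as a block was therefore added.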

Additional observations from a re-analysis of the deposited data

Results flagged for a closer look

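In 11 of 86 groups of 4 to 10 samples, 1 sample lay far from the others. About 1 in 20 would by chance if the groups were independent. These groups reuse the same samples and join pools, so that rate is no baseline for them. The samples flagged were HRO.10, WTO.3 and WTO.4, each the only one of its group in its pool (WBM_3, WBM_1 and WBM_2). Sample and pool cannot be told apart there. In T or NK cells this was the mean level in WTO.4 (5.02) among WTO and in HRO.10 (5.38) among HRO, and Bst2 in WTO.3 (105.4 CPM). HRO.10 stood apart from the other HRO samples in immature neutrophils for Cmpk2 (164 CPM), Ifi27l2a (1214 CPM) and Trim30a (195 CPM). It also did so for Ifit1 in mature neutrophils (701 CPM) and for Ifi27l2a in myeloid progenitors (77.9 CPM). WTO.4 stood apart from the other WTO samples in immature neutrophils for Irf9 (47.7 CPM) and Trim30a (71.1 CPM), and WTO.3 in myeloid progenitors for Ifi27l2a (775 CPM).

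The difference between HRO and WTO exceeded that between HRY and WTY in mature neutrophils for Isg15 (1.94 on the log2 scale, adjusted p = 0.0162) and Irf7 (1.87, adjusted p = 0.0416), by the interaction term of edgeR's quasi-likelihood test.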

How the results depend on the processing

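Counts of listed genes past the threshold depended strongly on the setting. Of 593 such counts under alternatives, 430 stayed within 1.5 times the reported count and 163 moved; causes were not tested. Scaling by DESeq2's size factors moved none of them.

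For HRO against WTO, in immature neutrophils the count was 5 with DESeq2, 23 with no filter, 0 without the pool term, 10 with Ddx3y status (a Y-linked gene) as a term, 0 without HRO.7 and HRO.8, 6 at clustering resolution 2, 15 with the listed genes among the variable genes, 12 with the per-cell marker gate and 1 with HRO.7 and HRO.8 counted as 1 sample (an alternative chosen after seeing the data). In mature neutrophils it was 8 with no filter, 0 without the pool term, 2 in WBM_2 and WBM_4 alone and 9 with the gate. In monocytes it was 13 with no filter, 0 without the pool term, 0 in these pools alone and 1 with hashtags normalised within cells. In myeloid progenitors it was 14 with no filter, 1 with HRO.7 and HRO.8 as 1 sample, and 0 without the pool term, in the 2 pools, with at least 50 cells, with hashtags normalised within cells, at resolution 2 and with the listed genes among the variable genes. In B lineage cells it was 1 with Ddx3y or with HRO.7 and HRO.8 as 1 sample, and 0 without both, in the 2 pools or with at least 50 cells.

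For HRO against HRY, in immature neutrophils it was 26 with no filter, 0 without the pool term, 2 with Ddx3y, 21 without HRO.7 and HRO.8 and 6 with listed genes among the variable genes. In mature neutrophils it was 12 with DESeq2 and 1 without the pool term, and in monocytes 0 without the pool term. In myeloid progenitors it was 13 with no filter, 2 without HRO.7 and HRO.8, 5 at resolution 2, 5 with listed genes variable and 12 with the gate. For WTO against WTY with no filter it was 10, 4, 10 and 1 in immature neutrophils, mature neutrophils, monocytes and myeloid progenitors. The mature neutrophil count was 0 with DESeq2, without the pool term, without HRO.7 and HRO.8, with at least 50 cells, at resolution 2, with listed genes variable and with the gate. The monocyte count was 1 without HRO.7 and HRO.8 and 2 with listed genes variable. For HRY against WTY it was 1 in monocytes with no filter.

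For chronic against HRO with no filter it was 18, 4, 17 and 6 in these classes. With listed genes variable it was 1 in immature neutrophils, and 0 in mature neutrophils, where it was also 0 without the pool term, at resolution 2 and with the gate. In monocytes it was 5 with DESeq2, 0 without the pool term, 2 with Ddx3y, 4 without HRO.7 and HRO.8, 0 with hashtags normalised within cells and 4 with listed genes variable. In myeloid progenitors it was 4 without the pool term and 1 without HRO.7 and HRO.8. For the interaction with no filter it was 17, 6, 9 and 11. In immature neutrophils it was 1 with DESeq2 and 1 with listed genes variable. In mature neutrophils it was 1 with DESeq2 and with doublet scores removed, and 0 without the pool term, with hashtags normalised within cells, at resolution 2, with listed genes variable and with the gate. In monocytes it was 3 with DESeq2, 2 with Ddx3y, 3 without HRO.7 and HRO.8, 2 at resolution 2 and with listed genes variable, and 0 without the pool term, with hashtags normalised within cells and with the gate.

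Leaving out 1 sample at a time, the counts for immature neutrophils, mature neutrophils, monocytes and myeloid progenitors ranged, for HRO against WTO, from 0 to 22, 2 to 7, 0 to 14 and 0 to 15 (B lineage 0 to 2, T or NK cells 0). For HRO against HRY they ranged from 0 to 26, 0 to 20, 0 to 22 and 0 to 11, for WTO against WTY from 0 to 1, 0 to 4, 0 and 0, and for HRY against WTY 0 throughout. For chronic against HRO they ranged from 0, 0 to 2, 0 to 6 and 0 to 3, and for the interaction 0 to 5, 0 to 6, 0 to 3 and 0 to 9.

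Of the named genes' values, 2 reversed with a sample left out, both without HRO.10 in mature neutrophils for HRO against HRY (Xaf1 -3.44, Ifit3b -0.60; the other left-out samples gave up to 4.42 and 4.43). Ifi27l2a reversed in myeloid progenitors for chronic against HRO without the pool term (4.99). With the sample number as a replicate block in place of the pool term (an alternative chosen after seeing the data), the count for WTO against WTY was 0 in mature neutrophils and for HRY against WTY 1 in monocytes; the other 6 counts stayed 0. For HRY against WTY the 2 pairs correlated at -0.39 (HRY.4 and WTY.4) and 0.25 (HRY.5 and WTY.5) in immature neutrophils, so these samples share only a number. HRO shares no number with WTO or HRY. Depth limits the low genes: Mx1 in immature neutrophils was at most 2.48 CPM.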

Other observations

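Ifi44, which encodes an interferon-induced GTP-binding protein, was either clearly present or nearly absent in monocytes. It was 63.0 CPM in WTO.3, 56.8 in WTO.4, 25.9, 42.3 and 33.6 in HRY.4 to HRY.6, 100.4 in HRO.7, 92.6 in HRO.8, 155 in HRO.10, 92.4 and 68.9 in the chronic samples and 21.7 in HR.7. It was 3.16, 0.98 and 1.11 CPM in WTY.3 to WTY.5, 0.99 and 0 in WTO.5 and WTO.6, and 2.98, 3.74 and 0 in HRO.9, HRO.11 and HRO.12. All 3 WTY samples and all 4 samples of WBM_4 were thus low, and in WBM_2 HRO.9 was low while HRO.7, HRO.8 and WTO.4 were not. HRO.9, with 2.98 CPM of Ifi44, had 106 CPM of Zbp1 and 67.9 CPM of Oasl2 in the same cells. The pattern was noticed after the values were seen and was not tested.

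Among genes outside the list, the promoter windows of 5 of 7 genes led by interferon gamma (71.43%) and 9 of 26 other genes known to be induced by type I interferon (34.62%) held the same core of the response element.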
